A study of Rattus norvegicus with 36 samples.

Results

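Per1, Per2, Per3 and Cry1 are 4 of the 29516 genes in the annotation used to count RNA from the rat pineal gland. They were chosen by name, as repressor genes of the circadian clock, and found by their Ensembl identifiers ENSRNOG00000007387 (Per1), ENSRNOG00000020254 (Per2), ENSRNOG00000018413 (Per3) and ENSRNOG00000006622 (Cry1). All 4 had read-pairs in each of the 36 libraries and passed the minimum level for testing in every comparison. All animals were Sprague-Dawley rats held under 14 h of light and 10 h of darkness.

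In vivo, glands were taken on day 40 at mid-day (ZT7, where ZT counts hours from lights on) or at midnight (ZT19). Males and females entered all 4 groups as pups. Control rats had no surgery, and Sham, DCN and SCGX rats had surgery on postnatal day 5. The Sham operation left the nerve supply whole. In DCN (decentralization) the superior cervical ganglia, whose sympathetic fibres innervate the gland, stayed in place but lost their central input. In SCGX (ganglionectomy) both ganglia were removed, so the gland had no sympathetic innervation for the rest of its growth. In vitro, glands of adult female rats were kept in culture for 48 h and then given 1 uM norepinephrine (NE, the transmitter of those fibres), 500 uM dibutyryl cyclic AMP (DBcAMP, which enters cells and mimics the messenger that the transmitter raises) or nothing (Untreated) for 6 h. These 11 groups had 3 libraries each. Each library was made from a pool of glands, which were collected 3 per tube, so the replicate is a pool and not an animal. In addition, 1 library each was made of day pineal glands, night pineal glands and mixed tissue, a pool of RNA from other organs.

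The clock of mammalian cells is a feedback loop. CLOCK and BMAL1 activate transcription through E-box sequences, and the products of the Period and Cryptochrome genes accumulate, enter the nucleus and repress that activation. PER1 and PER2 are core repressors whose transcripts in many cells also respond acutely to cyclic AMP. PER3 is a related protein with a smaller part in keeping the loop running. CRY1 is the partner that carries out much of the repression. In the rat pineal gland, night brings release of norepinephrine from the sympathetic fibres, which raises cyclic AMP in the pinealocyte and starts melatonin synthesis, so a transcript can be rhythmic there by way of the nerves, by way of the gland's own clock, or by both.

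Promoter windows of Per2 and Per3 are shown because Per2 had the widest night/day change of the 4 genes and Per3 the highest level in vivo. They come from RefSeq on the GRCr8 assembly, run from 250 bases before to 50 bases after an annotated start, and lie on the minus strand. Capitals mark a D-box (TTATGTAA), an E'-box (CACGTT) or the 5-base core of a cyclic AMP element (TGACG, or CGTCA on the opposite strand).
Per2, chr9:99496944-99497243: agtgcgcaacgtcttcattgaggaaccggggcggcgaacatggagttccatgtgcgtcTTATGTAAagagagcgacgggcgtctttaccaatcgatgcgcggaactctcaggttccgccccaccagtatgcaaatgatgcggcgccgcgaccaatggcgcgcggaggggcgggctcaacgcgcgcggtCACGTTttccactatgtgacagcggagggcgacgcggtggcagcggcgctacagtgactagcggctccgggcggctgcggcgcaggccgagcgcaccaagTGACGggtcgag
Per3, chr5:166777751-166778050: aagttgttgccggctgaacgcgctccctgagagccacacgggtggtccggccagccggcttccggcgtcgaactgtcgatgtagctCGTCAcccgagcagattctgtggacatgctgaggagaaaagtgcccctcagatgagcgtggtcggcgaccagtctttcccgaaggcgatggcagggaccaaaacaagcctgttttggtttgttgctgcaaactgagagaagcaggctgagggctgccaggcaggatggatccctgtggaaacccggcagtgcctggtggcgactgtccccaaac

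In the Per2 window the D-box starts 192 bases and the E'-box 62 bases before the start, and the cyclic AMP core lies 38 bases after it. The Per3 window holds 1 cyclic AMP core, 164 bases before the start. The annotated start lies 76 bases inside the gene for Per2 and 443 bases inside for Per3, so the whole Per3 window is within the annotated gene. Searched on both strands in windows of the same length, the D-box letters occurred in 0.893% of 33469 rat promoters, the E'-box in 4.83%, the cyclic AMP core in 21.2% and the full E-box (CACGTG) in 6.42%. The full E-box was in neither window. The Per2 window also has 4 GC boxes (GGGCGG), letters found in 33.1% of promoters, and 41 CpG against a median of 7. The Per1 window held none of these motifs, and its annotated start lies 5374 bases inside the gene. None of the 3 starts need be the one in use here. A match of letters is a description and not a bound site.

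The levels are given as RPKM, which divides read-pairs by gene length and library size and can be compared between genes. RPKM lacks the further scaling between libraries (TMM) that the fold changes carry, so ratios of RPKM can differ from them. Overlap of libraries is described in RPKM, and the share of all genes without overlap was not counted. Fold changes come from the counts of all genes fitted together, with adjusted p-values below 0.05 called. In vivo the mean RPKM over the 24 libraries was 50.9 for Per3, 12.1 for Per1, 5.54 for Cry1 and 4.26 for Per2. Per3 lay above 90.9% of the 23463 genes with read-pairs in vivo, whereas Per2 lay above 54.7%. In tissue pools, fewer cells of a type and less RNA per cell cannot be told apart.

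Read-pairs on genes were between 12985072 and 18504240 per library in vivo and between 12556861 and 18524435 in vitro. DCN day replicate 1 and Sham night replicate 3 stood apart from the other in vivo libraries, with scores of 54.8 and 47.6 on the second principal component against -18.9 to 1.69 elsewhere. Test results that involve them are also given without them. Identifiers were not paired with symbols, so the tissue was not checked against pineal markers.

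In glands with intact nerves, all 4 transcripts were higher at midnight, and Per2 had the widest swing. In Control, Per2, the core repressor with the lowest daytime level, read 1.24, 0.626 and 0.701 RPKM by day and 8.93, 6.19 and 6.94 RPKM by night. In Sham it read 0.849, 0.630 and 0.987 RPKM by day and 7.92, 11.9 and 10.6 RPKM by night. The lowest night library was thus several times the highest day library in both groups. The rise was 9.72-fold in Control (log2 3.28, SE 0.24, adjusted p = 1.70e-05) and 12.9-fold in Sham (log2 3.69, SE 0.22, adjusted p = 0.000153).

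Per1, the other core repressor, followed with a smaller swing. In Control it read 4.82, 4.21 and 3.76 RPKM by day and 19.6, 16.1 and 17.1 RPKM by night. The Sham libraries were at 5.51, 4.09 and 4.43 RPKM by day and at 26.0, 22.8 and 20.8 RPKM by night, and day and night did not overlap in either group. The rise was 4.66-fold in Control (log2 2.22, SE 0.12, adjusted p = 2.81e-06) and 5.22-fold in Sham (log2 2.38, SE 0.16, adjusted p = 0.000227).

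Per3 was abundant at both times. In Control its RPKM was 26.8, 28.2 and 19.8 by day and 64.2, 56.8 and 58.5 by night. In Sham it was 28.5, 28.2 and 27.1 by day and 59.0, 57.4 and 49.97 by night. The highest day library was at 28.5 and the lowest night library at 49.97. Per3 rose 2.70-fold in Control (log2 1.43, SE 0.14, adjusted p = 8.02e-05) and 2.09-fold in Sham (log2 1.06, SE 0.10, adjusted p = 0.000954).

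Cry1 had the smallest swing. Control libraries were at 4.75, 2.89 and 4.17 RPKM by day and 6.24, 4.74 and 5.07 RPKM by night, with the lowest night library just under the highest day library. Sham libraries were at 3.98, 4.09 and 4.15 RPKM by day and 5.57, 7.02 and 7.16 RPKM by night, without overlap. The rise was 1.54-fold in Control (log2 0.62, SE 0.18, adjusted p = 0.0284) and 1.69-fold in Sham (log2 0.76, SE 0.13, adjusted p = 0.00869). The Control call was lost with library size as the scaling (adjusted p = 0.106) and when any 1 of 3 libraries was left out, since the adjusted p was 0.0628 without day replicate 2, 0.0660 without day replicate 3 and 0.0590 without night replicate 1.

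**Figure D1:**
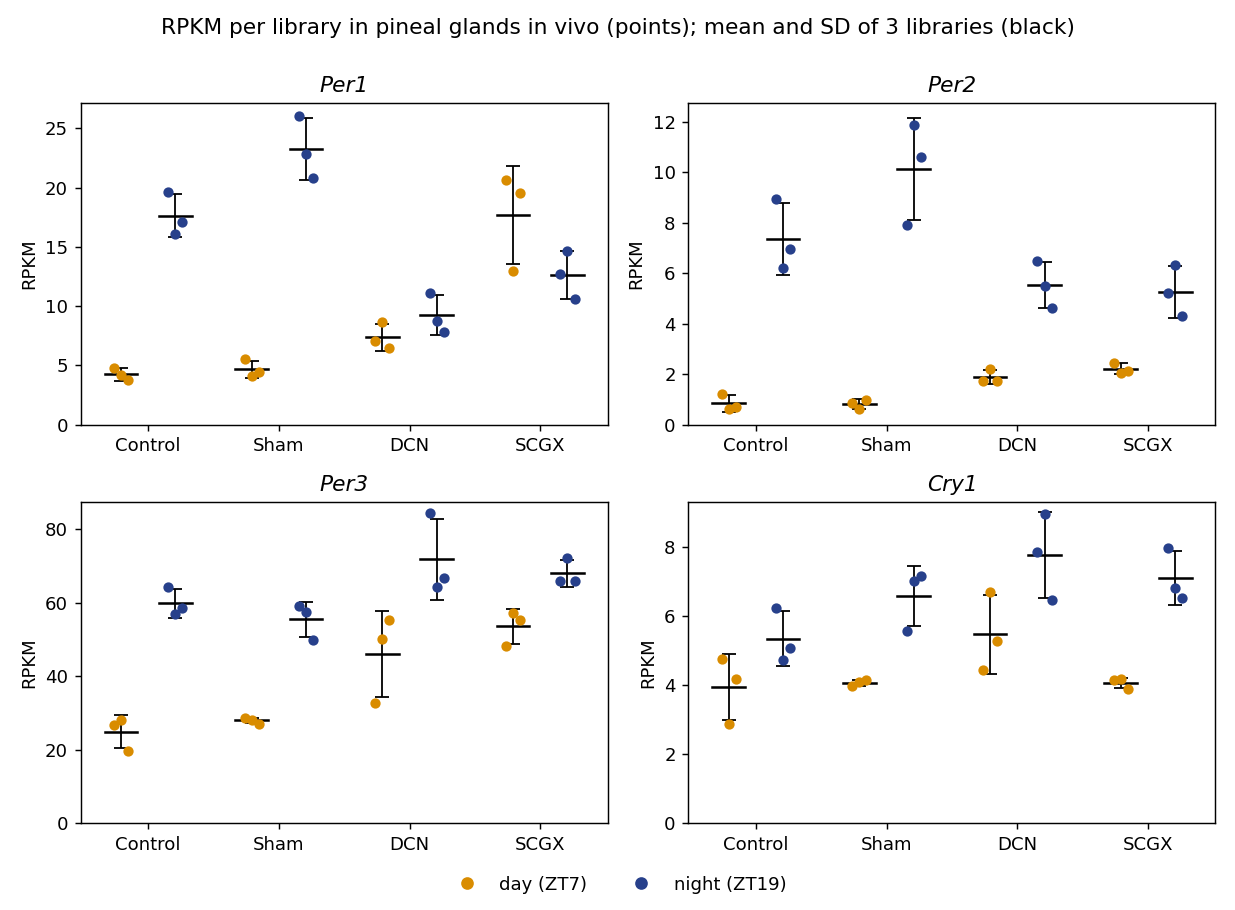
RPKM of each gene (vertical axes, from 0) in every in vivo library, with day in orange and night in blue for the Control, Sham, DCN and SCGX groups. Bars show the mean and SD of 3 libraries. Per2 and Per3 stay separated by time in all 4 groups, whereas the Per1 day and night points overlap in DCN and SCGX.

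All 4 genes were therefore called in Control, where 35.3% of the 15622 genes tested were called, and in Sham, where 20.6% of 16050 were. The median log2 fold change over all tested genes was -0.03 in Control and -0.04 in Sham. The night/day effects of Control and Sham did not differ detectably for any of the 4 genes (edgeR, adjusted p between 0.681 and 0.812). None had an unadjusted p below 0.05, DESeq2 called none, and 0.0126% of all genes were called. The intervals are wide, since the Per2 difference of -0.49 on the log2 scale had a 95% interval of -1.26 to 0.28. Leaving out Sham night replicate 3 kept all 4 calls in Sham, with log2 rises of 2.57 for Per1, 3.77 for Per2, 1.24 for Per3 and 0.81 for Cry1. Without it the Control differences from Sham were -0.34, -0.49, 0.20 and -0.19 in the same order, none called.

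After decentralization the swing of Per1 and Per2 was smaller than in Sham. In DCN, Per1 read 7.08, 8.64 and 6.45 RPKM by day and 11.1, 8.71 and 7.85 RPKM by night, so that the times overlapped. The night/day fold was 1.28 (log2 0.35, or 0.32 without day replicate 1, SE 0.15, adjusted p = 0.560). This fold was 4.24 times lower than in Sham (log2 difference -2.08, SE 0.24, adjusted p = 0.000301). Without Sham night replicate 3 this difference was -2.22, and without DCN day replicate 1 it was -2.11.

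Day and night did not overlap for Per2 in DCN. It read 1.72, 2.21 and 1.75 RPKM by day and 6.48, 5.48 and 4.64 RPKM by night. The fold was 2.99 (log2 1.58, SE 0.15, unadjusted p = 1.42e-05), but the adjusted p of 0.118 did not pass, and without day replicate 1 the log2 effect was 1.51. The fold was 4.47 times lower than in Sham (log2 difference -2.16, SE 0.27, adjusted p = 0.000441). Without Sham night replicate 3 this difference was -2.20, and without DCN day replicate 1 it was -2.23.

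Per3 in DCN read 32.8, 50.01 and 55.2 RPKM by day and 84.3, 64.2 and 66.8 RPKM by night, without overlap. The low day library is replicate 1, which stood apart over all genes. The night/day fold was 1.59 (log2 0.67, SE 0.21, adjusted p = 0.505), and the log2 effect was 0.48 without that library. Cry1 read 4.43, 6.70 and 5.27 RPKM by day and 7.87, 8.96 and 6.46 RPKM by night, with overlap, and its fold was 1.45 (log2 0.54, or 0.41 without day replicate 1, SE 0.17, adjusted p = 0.506).

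None of the 4 genes was called between night and day in DCN by edgeR, where 0% of the 15928 genes tested were called. At an unadjusted p below 0.05 the test held 3 of the 4 (Per2, Per3 and Cry1) against 8.98% of all genes. DESeq2 called 105 genes, of which Per2 was the 1 member (adjusted p = 1.31e-13). Per2 was called as well when no low genes were filtered out (adjusted p = 0.0483) and when all in vivo libraries shared 1 model (adjusted p = 0.00280). The biological coefficient of variation, a single value over all genes, was 20.1% in the DCN fit and 28.2% in that of Sham, which includes night replicate 3. Why edgeR called no gene in DCN was not tested. The difference from Sham was called for Per1 and Per2 among 11.2% of 16047 genes. For Per3 it was -0.44 on the log2 scale with an interval of -1.02 to 0.14. For Cry1 it was -0.27 with an interval of -0.75 to 0.21. A smaller, an equal or a larger swing than in Sham is thus possible for both. Without DCN day replicate 1 these differences were -0.64 (adjusted p = 0.0870) and -0.40, and without Sham night replicate 3 they were -0.58 and -0.28.

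After ganglionectomy Per2 and Cry1 rose at night, whereas Per1 and Per3 did not pass the test. Per1 read 20.6, 13.0 and 19.5 RPKM by day and 12.7, 14.6 and 10.6 RPKM by night. The upper 2 day libraries were above every night library, while day replicate 2 lay among them. The night/day fold was 0.694 (log2 -0.53, SE 0.18, adjusted p = 0.162), and without day replicate 2 the lower night level was called (log2 -0.71, adjusted p = 0.0349). DESeq2 called it too (adjusted p = 0.0263).

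Per2 in SCGX read 2.46, 2.06 and 2.14 RPKM by day and 5.20, 6.34 and 4.29 RPKM by night, with no overlap and a 2.31-fold rise (log2 1.21, SE 0.15, adjusted p = 0.00898). Cry1 read 4.14, 4.17 and 3.90 RPKM by day and 7.99, 6.82 and 6.52 RPKM by night, also with no overlap and a 1.70-fold rise (log2 0.76, SE 0.10, adjusted p = 0.0107). The Cry1 call was lost without SCGX day replicate 3 (adjusted p = 0.0541), and with all in vivo libraries in 1 model (adjusted p = 0.0649).

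Per3 in SCGX read 48.3, 57.3 and 55.2 RPKM by day and 66.0, 72.2 and 65.9 RPKM by night. The times did not overlap, but the fold of 1.23 (log2 0.30, SE 0.07) was not called (adjusted p = 0.0801). It was called by DESeq2 (adjusted p = 0.0174), with library size as the scaling (adjusted p = 0.0498) and without the filter on low counts (adjusted p = 0.0346). With 2 of 4 genes called by edgeR, the share stands against 1.85% of 15551 genes between night and day in SCGX. DESeq2 called all 4 members, Per1 as lower at night, among 581 genes called, against 287 by edgeR.

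**Figure D2:**
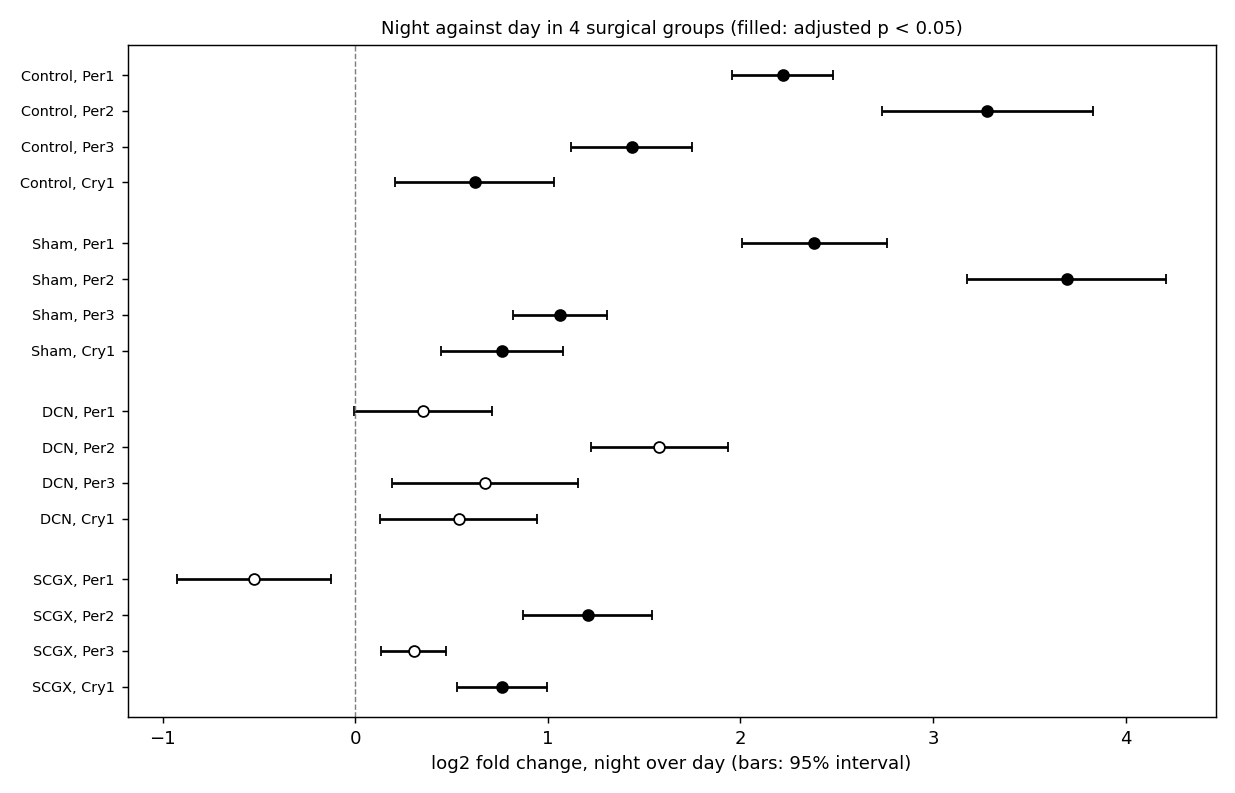
Log2 fold change of night over day (horizontal axis) with its 95% interval for the 4 genes in each surgical group, with filled points called at an adjusted p below 0.05. From Control and Sham to SCGX, Per1 goes from 2.22 and 2.38 to -0.53 and Per2 from 3.28 and 3.69 to 1.21, while Cry1 goes from 0.62 and 0.76 to 0.76.

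The difference of the night/day effect from Sham was called for the 3 Period genes in SCGX and not for Cry1, and the genes were not tested against each other. The night/day fold of Per1 was 7.90 times lower than in Sham (log2 difference -2.98, SE 0.28, adjusted p = 2.24e-05). Its estimate lay below 1 in SCGX (0.694, not called) and above 1 in Sham (5.22). For Per2 the fold was 5.87 times lower (log2 difference -2.55, SE 0.27, adjusted p = 5.83e-05). For Per3 it was 1.78 times lower (log2 difference -0.83, SE 0.15, adjusted p = 0.00229). For Cry1 the difference was -0.06 with a 95% interval of -0.41 to 0.28 (adjusted p = 0.835), which spans a swing between 0.753 and 1.22 times that of Sham. Among all genes 18.5% of 15894 were called. Without Sham night replicate 3 the differences were -3.10 for Per1, -2.57 for Per2, -0.94 for Per3 and -0.06 for Cry1. The DCN and SCGX differences share the Sham libraries and are not independent of each other.

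SCGX and DCN were not told apart in their night/day effects. No member was called by edgeR or by DESeq2, and edgeR called 0% of 15779 genes. Only Per1 had an unadjusted p below 0.05, with a log2 difference of -0.87 (SE 0.27, unadjusted p = 0.00739, adjusted p = 0.349), against 10.6% of all genes at that level. Without DCN day replicate 1 the differences were -0.85 for Per1, -0.31 for Per2, -0.18 for Per3 and 0.35 for Cry1, none called.

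Set against Sham at midnight, Per1 and Per2 were lower in both operated groups. Per1 was 2.73-fold lower in DCN (log2 -1.45, SE 0.16, adjusted p = 0.00243) and 1.98-fold lower in SCGX (log2 -0.98, SE 0.15, adjusted p = 0.00585). Per2 was 1.98-fold lower in DCN (log2 -0.99, SE 0.18, adjusted p = 0.0129) and 2.06-fold lower in SCGX (log2 -1.04, SE 0.19, adjusted p = 0.0111). No library of either operated group reached the lowest Sham library in either gene. Without Sham night replicate 3 all 4 calls held, at log2 -1.62 for Per1 and -1.05 for Per2 in DCN and -1.17 and -1.12 in SCGX. The Per2 calls were lost without DCN night replicate 2 (adjusted p = 0.0592) and without SCGX night replicate 1 (adjusted p = 0.0543).

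Neither Per3 nor Cry1 passed the test at midnight. The Per3 log2 difference from Sham was 0.26 in DCN (interval -0.07 to 0.59) and 0.19 in SCGX (interval -0.05 to 0.43). In RPKM, which lacks the TMM scaling of these differences, every Per3 night library of both operated groups was above the highest Sham night library. Leaving out Sham night replicate 3 took these differences to 0.09 and 0.01, and with library size as the scaling the SCGX difference was called (log2 0.29, adjusted p = 0.0392). The Cry1 differences were 0.12 in DCN (interval -0.23 to 0.48) and 0.01 in SCGX (interval -0.31 to 0.32), or 0.09 and -0.05 without that library. So 2 of 4 genes were called in each, against 17.1% of 15939 genes in DCN and 20.8% of 15886 in SCGX.

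At mid-day the 3 Period genes were higher in SCGX than in Sham. Per1 was 3.84-fold higher (log2 1.94, SE 0.19, adjusted p = 0.00106), with SCGX day libraries at 13.0 RPKM or more against 5.51 RPKM or less in Sham. Per2 was 2.75-fold higher (log2 1.46, SE 0.18, adjusted p = 0.00257) and Per3 1.95-fold higher (log2 0.96, SE 0.08, adjusted p = 0.000456). Cry1 did not pass, with a log2 difference of 0.02 and an interval of -0.22 to 0.26. The share of genes called was 11.4% of 15758.

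Of the mid-day differences of DCN from Sham, Per2 was called, 2.21-fold higher (log2 1.14, SE 0.21, adjusted p = 0.0447), among 2.53% of 16076 genes. It rested on the full set of libraries, because 5 of the 6 fits that left out 1 library lost it (adjusted p up to 0.161), and it held at an adjusted p of 0.0493 without DCN day replicate 1. Per1 (log2 0.60, SE 0.15, adjusted p = 0.0824) and Per3 (log2 0.66, SE 0.18, adjusted p = 0.106) did not pass. In RPKM no DCN day library overlapped Sham for any of the 4 genes, Cry1 included. Per1 and Per3 were called by DESeq2 (adjusted p = 0.0164 and 0.00788). Without DCN day replicate 1, Per3 was called (log2 0.86, adjusted p = 0.00770), and Per1 was at 0.63 and Per2 at 1.21. Cry1 differed by 0.37 (interval -0.02 to 0.75, adjusted p = 0.241), or by 0.50 without that library.

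**Figure D3:**
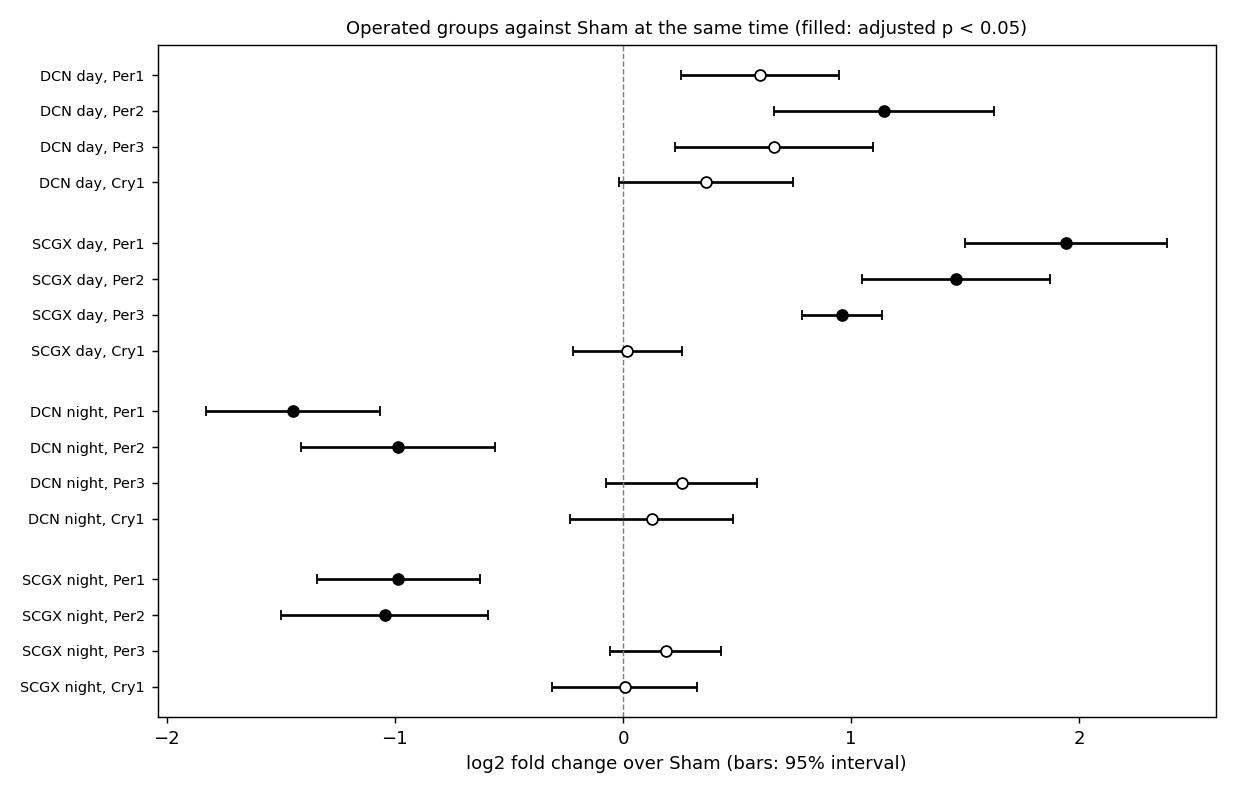
Log2 fold change of DCN and SCGX over Sham at the same time of day (horizontal axis) with 95% intervals, with filled points called at an adjusted p below 0.05. Per1 and Per2 lie to the right of 0 by day and to the left by night, from 1.94 to -0.98 for Per1 in SCGX, while all 4 Cry1 points lie between 0.01 and 0.37.

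The comparison of SCGX with DCN at each time was added after the levels of the 4 genes had been seen. By day Per1 was 2.53-fold higher in SCGX than in DCN (log2 1.34, SE 0.19, adjusted p = 0.0353). It was the 1 member called, among 0.761% of 15902 genes, and the call was lost without DCN day replicate 2 or 3 or without SCGX day replicate 1 or 3 (adjusted p up to 0.188). Without DCN day replicate 1 it held (log2 1.31, adjusted p = 0.0190). The other 3 did not pass, with log2 differences of 0.31 for Per2, 0.29 for Per3 and -0.35 for Cry1, or 0.24, 0.09 and -0.49 without DCN day replicate 1. By night none was called by edgeR or DESeq2, and edgeR called 0% of 15579 genes. By edgeR, Per1 alone had an unadjusted p below 0.05 there (log2 0.46, unadjusted p = 0.0173, adjusted p = 1.00), against 3.80% of all genes.

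Expressed against the Sham night mean, the day RPKM of Per1 was 20.2% in Sham, 31.8% in DCN and 76.2% in SCGX, and its night RPKM was 39.7% in DCN and 54.4% in SCGX. For Per2 the day RPKM was 8.11%, 18.7% and 21.9% in the same order, and the night RPKM 54.6% and 52.1%. Per3 stood at 50.4%, 83.0% and 96.6% by day and at 129% and 123% by night. Cry1 stood at 61.9%, 83.1% and 61.8% by day and at 118% and 108% by night. These percentages are ratios of mean RPKM, without the TMM scaling of the tests. At night the tests put Per3 at 1.20-fold of Sham in DCN and 1.14-fold in SCGX. They put Cry1 at 1.09-fold and 1.005-fold, and none of these was called.

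In culture, norepinephrine raised Per1, Per2 and Cry1 and lowered Per3. Per1 read 8.07, 5.88 and 7.22 RPKM in Untreated, 11.0, 15.6 and 12.8 RPKM in NE and 15.6, 11.97 and 15.4 RPKM in DBcAMP. Every treated library was above every untreated one. The rise was 1.98-fold in NE (log2 0.98, SE 0.12, adjusted p = 1.10e-05) and 2.23-fold in DBcAMP (log2 1.16, SE 0.12, adjusted p = 8.69e-06).

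Per3 moved the other way. It read 42.8, 37.1 and 40.4 RPKM in Untreated, 27.8, 25.6 and 25.9 RPKM in NE and 21.3, 22.5 and 25.6 RPKM in DBcAMP. No treated library reached the lowest untreated one. Per3 was 1.42-fold lower in NE (log2 -0.51, SE 0.07, adjusted p = 7.44e-05) and 1.57-fold lower in DBcAMP (log2 -0.65, SE 0.08, adjusted p = 3.57e-05). This is the opposite direction to its rise between day and night in Control and Sham.

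Cry1 read 9.22, 8.68 and 8.81 RPKM in Untreated, 10.3, 11.6 and 13.0 RPKM in NE and 11.8, 12.2 and 10.9 RPKM in DBcAMP. The treated libraries were all above the untreated ones. It rose 1.39-fold in NE (log2 0.48, SE 0.09, adjusted p = 0.00104) and 1.44-fold in DBcAMP (log2 0.52, SE 0.09, adjusted p = 0.000356).

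Per2, which had the widest swing in vivo, had the smallest estimated changes in culture. It read 6.73, 7.09 and 6.92 RPKM in Untreated, 7.51, 8.34 and 9.34 RPKM in NE and 7.65, 6.47 and 6.58 RPKM in DBcAMP. The NE libraries lay above the untreated ones and the DBcAMP libraries on both sides of them. It rose 1.30-fold in NE (log2 0.37, SE 0.09, adjusted p = 0.00374) and was not called in DBcAMP (log2 0.14, interval -0.06 to 0.33, adjusted p = 0.235).

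**Figure D4:**
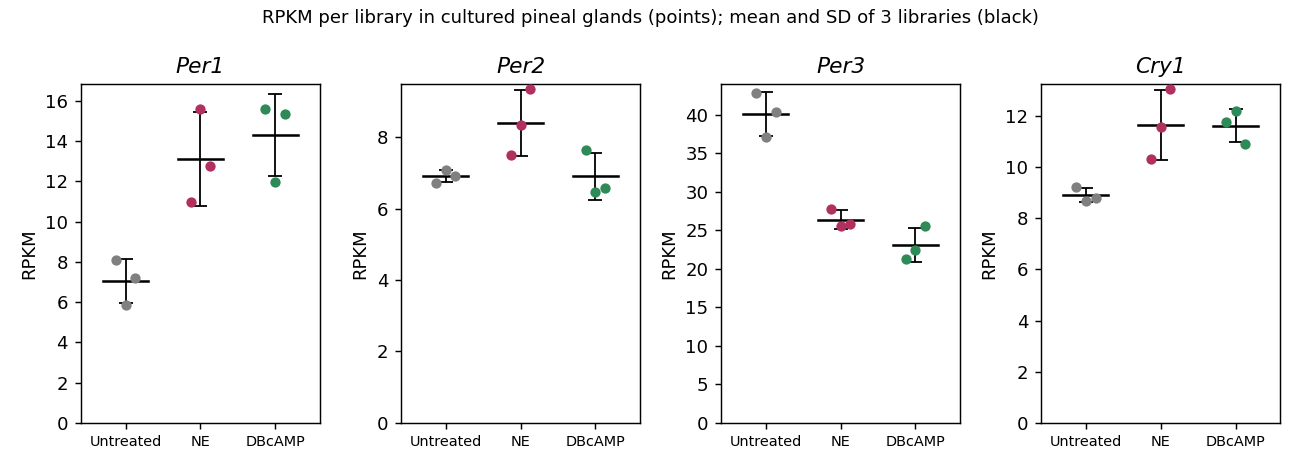
RPKM of each gene (vertical axes, from 0) in every library of cultured glands left Untreated or given NE or DBcAMP, with bars for the mean and SD of 3 libraries. Treated points lie above untreated ones for Per1 and Cry1 and below them for Per3, and for Per2 the means are 6.91 RPKM in Untreated, 8.40 in NE and 6.90 in DBcAMP.

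All 4 genes were called for NE, where 30.2% of 15219 genes were, and 3 of 4 for DBcAMP, where 42% of 15196 were. Both comparisons share the Untreated libraries. NE and DBcAMP were not told apart in any of the 4 genes by edgeR or DESeq2, while edgeR called 6.07% of 15029 genes. By edgeR, Per2 alone had an unadjusted p below 0.05 (log2 0.24 higher in NE, interval 0.03 to 0.44, unadjusted p = 0.0294, adjusted p = 0.190), against 20.1% of all genes. The intervals for the other 3 ran from -0.43 to 0.08 for Per1, from -0.04 to 0.33 for Per3 and from -0.26 to 0.16 for Cry1. The scaling moved the DBcAMP levels most, since rescaling RPKM by the TMM factors took the DBcAMP means to 7.81 RPKM for Per2, 26.2 for Per3 and 13.2 for Cry1, from 6.90, 23.1 and 11.6.

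Untreated cultures are set side by side with the in vivo means without a test, because they come from other animals and were sequenced apart. The study also does not state the time of day at which glands were placed in culture or harvested. Untreated means fell at different points relative to the in vivo means for each gene. The mean RPKM of Per2 in Untreated was 6.91 ± 0.181 (SD, n = 3), between Control night at 7.35 ± 1.42 and DCN night at 5.53 ± 0.921. Untreated Per1 was at 7.06 ± 1.11, next to DCN day at 7.39 ± 1.13. Untreated Per3 was at 40.1 ± 2.86, between DCN day at 46.0 ± 11.7 and Sham day at 28.0 ± 0.732. Cry1 was at 8.90 ± 0.284 in Untreated, above the mean of every in vivo group, of which DCN night was highest at 7.76 ± 1.25.

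Ordered by mean RPKM over the 11 groups, Per1 ran from Sham night (23.2 ± 2.62) through SCGX day (17.7 ± 4.13) and Control night (17.6 ± 1.81) to Control day (4.26 ± 0.535). SCGX day and Control night overlapped, and so did each neighbouring pair from DBcAMP (14.3 ± 2.03) down to Untreated. Per2 ran from Sham night (10.1 ± 2.02) to Sham day (0.822 ± 0.180), with gaps only between SCGX night and SCGX day (2.22 ± 0.211) and between DCN day (1.89 ± 0.274) and Control day (0.855 ± 0.333). Per3 ran from DCN night (71.8 ± 10.9) and SCGX night (68.0 ± 3.63) to DBcAMP (23.1 ± 2.24), with gaps below SCGX night and below Untreated. Cry1 ran from NE (11.6 ± 1.37) and DBcAMP (11.6 ± 0.649) to Control day (3.94 ± 0.955), with gaps below DBcAMP and below Control night (5.35 ± 0.791). The other neighbours in each order overlapped, apart from Sham night and SCGX day, Control night and DBcAMP, and Untreated and Sham day in Per1.

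The proportions among the Period genes changed with the group. The Per3 to Per2 ratio of RPKM within a library was 31.6 ± 12.02 in Control day and 35.3 ± 8.76 in Sham day, and fell to 8.27 ± 1.01 and 5.67 ± 1.54 at night. It was 24.4 ± 6.46 by day and 13.0 ± 1.35 by night in DCN, and 24.4 ± 4.25 and 13.2 ± 2.03 in SCGX. In cultures it was 5.81 ± 0.565 in Untreated, 3.18 ± 0.474 in NE and 3.38 ± 0.560 in DBcAMP. Each is a mean and SD of 3 libraries and was not tested.

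Over the 24 in vivo libraries, log2 normalized counts of Per2 correlated with those of Per3 at r = 0.87, of Per1 at 0.85 and of Cry1 at 0.84. Per1 and Cry1 had the loosest tie of the 6 pairs, at r = 0.51. The libraries fall into 8 groups, so these values carry the group differences above and are given as a description without a p. Among 15875 genes, Per2 ranked 5 in likeness to Cry1, but the other ranks were lower. Seen from Per2, Per3 ranked 165, Per1 210 and Cry1 241. The member most like Per1 was Per2 at rank 247, and the member most like Per3 was Per2 at rank 56. Many other genes thus followed the Period genes more closely than these members did. The gene most like Per1 was ENSRNOG00000002828 (r = 0.97), and the gene most like Per3 was ENSRNOG00000043498 (r = 0.96).

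The single libraries of day pineal, night pineal and mixed tissue place the 4 genes against other organs. Day pineal read 9.16 RPKM for Per1, 1.97 for Per2, 36.3 for Per3 and 3.77 for Cry1. Mixed tissue, taken at ZT7, read 17.0, 5.94, 16.9 and 6.44 RPKM in the same order. Night pineal read 52.6, 15.0, 64.4 and 7.43 RPKM. Per3 alone was higher in pineal than in mixed tissue at both times.

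Scaled by the median of ratios, day pineal was lower than mixed tissue in Per1 (1.85-fold), Per2 (2.99-fold) and Cry1 (1.70-fold) and 2.15-fold higher in Per3 (interval 2.04 to 2.27). Night pineal was higher in all 4, by 3.59-fold in Per1, 2.94-fold in Per2, 4.43-fold in Per3 and 1.34-fold in Cry1 (interval 1.22 to 1.49). With library size as the scaling instead, night over day in these 2 pineal libraries was 5.74 for Per1, 7.59 for Per2, 1.77 for Per3 and 1.97 for Cry1. With 1 library each there is no replicate check, and the 95% intervals cover counting error only.

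**Figure D5:**
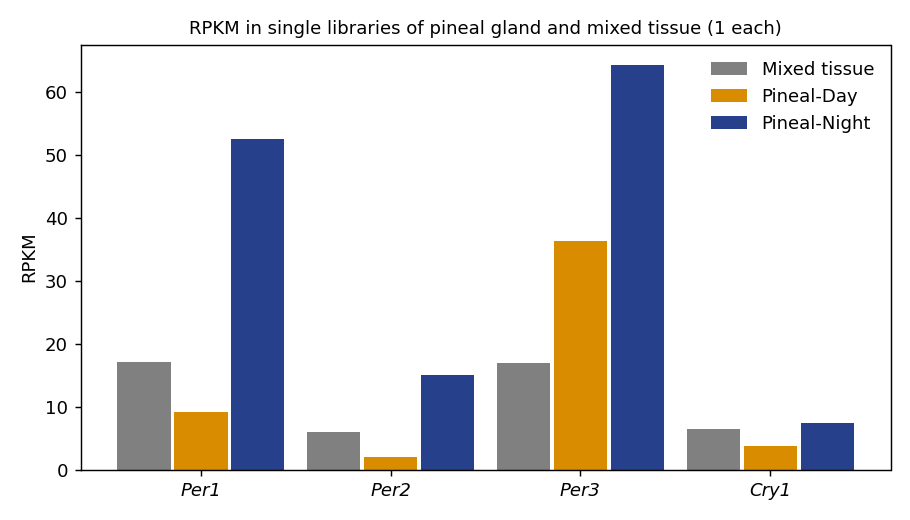
RPKM (vertical axis, from 0) of the 4 genes in 1 library each of mixed tissue, day pineal (Pineal-Day) and night pineal (Pineal-Night). The Per3 bars are at 16.9, 36.3 and 64.4 RPKM, and for the other 3 genes the mixed tissue bar stands between day and night pineal.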

How the data were processed

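Stranded, ribosome-depleted total RNA was sequenced in 36 libraries. The authors aligned read-pairs to the rn4 assembly with STAR 2.3.1y and counted them per gene of the Ensembl annotation by HTSeq's rules. The authors deposited raw counts, 1 table per library, as integers per gene. The deposited RPKM values are those counts divided by the length of the gene and the size of the library, and were used for levels only.

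Tests used edgeR 4.0.16 in R 4.3.3 (TMM, quasi-likelihood test, Benjamini-Hochberg adjustment over all genes) on the libraries compared. Genes with a mean normalized count under 5 were not tested, and calls were made at an adjusted p below 0.05. Standard errors are the log2 fold change over the root of F. Each difference of night/day effects is an interaction term. Single pineal libraries were set against mixed tissue after median-of-ratios scaling, with exact binomial 95% intervals. Their night over day ratio used library size as the scaling. Replicate libraries differed beyond sampling noise. With 3 pools per group an exact permutation test of 1 value could not go below 0.1.

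Alternatives were DESeq2 1.42.0, other scalings and filters, the replicate number as a block, 1 model for all libraries of an experiment, a threshold of 0.001 and leaving out each library. The symbols of the 4 genes came with the choice of the genes and not from the files. The 4 genes and all lists were chosen with earlier results of these data known. The naming rule took the 4 genes in every comparison and the genes most like them. Lists of other clock genes, cyclic AMP targets and cell type markers were not analysed here, because the gene table used does not pair Ensembl identifiers with symbols. Promoter windows matched 3 of the 4 genes by symbol, and Cry1 was not matched.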

Additional observations from a re-analysis of the deposited data

Results flagged for a closer look

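In 5 cases the night/day effect of a gene differed between an operated group and Sham by the interaction test. In DCN the log2 difference from Sham was -2.08 for Per1 and -2.16 for Per2. In SCGX it was -2.98 for Per1, -2.55 for Per2 and -0.83 for Per3. Each was called in all 12 fits that left out 1 library, although Per3 did not pass at an adjusted p below 0.001, and the comparisons share the Sham libraries. Cry1 was not called in either, with log2 differences of -0.27 in DCN and -0.06 in SCGX.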

How the results depend on the processing

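No called fold change reversed under any alternative. Of 68 fold changes, DESeq2 left 63 on their side of the threshold, library size as the scaling 65, no filter 66, 1 model for all libraries 64, and median-of-ratios scaling and a minimum of 10 read-pairs all 68. Of 504 fits without 1 library, 487 gave the same side of the threshold. The number of the 4 genes called was 1 for DCN night against day with DESeq2, without the filter and in 1 model. For SCGX night against day it was 4 with DESeq2 and 1 in 1 model. For DCN against Sham by day it was 3 with DESeq2 and in 1 model. Over all genes DESeq2 called 105, 581 and 1372 in these comparisons, against 0, 287 and 407 by edgeR. For the other settings here and below, shares over all genes are not given, so those counts only describe the calls. The cause was not tested.

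At an adjusted p below 0.001 the count was 0 for SCGX night against day, for DCN against Sham by day and by night, for SCGX against Sham by night and for SCGX against DCN by day, 1 for SCGX against Sham by day and 2 for NE. It went from 4 to 3 for Control and for Sham night against day, by the loss of Cry1, and from 3 to 2 for the SCGX against Sham difference of night/day effects, by the loss of Per3 (adjusted p = 0.00229). Leaving out 1 library gave 3 to 4 genes for Control and 1 to 3 for SCGX night against day, 0 to 2 for DCN against Sham by day, 1 to 2 for DCN and for SCGX against Sham by night, and 0 to 1 for SCGX against DCN by day. With library size as the scaling, night pineal over mixed tissue was 3.09 for Per1, 2.52 for Per2, 3.80 for Per3 and 1.15 for Cry1.

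Replicate numbers did not pair the libraries, since in none of 13 comparisons did all 3 pairs correlate above 0.1 (r between -0.214 and 0.144). With the replicate number as a block, 67 of 68 calls stayed and Per2 for DCN against Sham by day was lost (log2 1.15, adjusted p = 0.110), which took that count from 1 to 0. Cry1 and day Per2 had the fewest read-pairs, with 133 and 56 in the lowest library.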
